A study of Mus musculus with 11 samples.

Results

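The sodium pump subunits and FXYD regulators of the main olfactory epithelium (MOE) were examined in newborn mice that lacked Bcl11b, a zinc-finger transcription factor made in developing olfactory sensory neurons (OSNs), and in wild type (WT) mice. The 8 genes were Fxyd1, Fxyd2, Fxyd3, Fxyd5, Fxyd6, Fxyd7, Atp1b1 and Atp1b2. Every probe set of the expression array whose annotation named one of these genes and no other gene was taken, which gave 8 of 18194 genes so named and 16 of 45101 probe sets. The 8 genes were picked partly on their measured difference between the genotypes in these same arrays, so that their differences are given below as a description. The fit over all probe sets gives how many of theirs lie past its threshold, but nothing is read from that count.

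The arrays comprised 6 Bcl11b KO MOEs, of which 4 were from males and 2 from females (replicates 3 and 6), and 5 WT MOEs, all from males. All mice were BALB/c at postnatal day 0 and were born to parents heterozygous for a conventional Bcl11b knockout, which removes the gene from every tissue and not from OSNs alone. Each array held the RNA of 1 preparation of whole MOE, a mixture of OSNs, supporting cells, glands, vessels and blood. In such bulk tissue, fewer cells of a type and less RNA per cell cannot be told apart.

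The sodium pump is an enzyme of the cell membrane that carries sodium out of the cell and potassium into it at the cost of ATP. Its alpha subunit does the transport, and its beta subunit carries the pump to the membrane and stabilises it. FXYD proteins are small proteins with a single membrane span, named for a shared stretch of amino acids, that attach to the pump in some tissues and tune its affinity for the ions. In the nose, the sodium gradient drives salt and fluid transport in glands and supporting cells, and the pump restores the ion balance of neurons after they fire.

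Signals were those of the deposited tables, scaled so that the GAPDH probe set read 10000 on every array. Differences were calculated as Bcl11b KO minus WT on the log2(signal + 16) scale, on which low signals change less than their ratio. A probe set was tested where its signal averaged at least 20 over the 11 arrays, which left 33662 of 45101 probe sets and 14 of the 16 examined here. The array medians lay between 62 and 86.5 in Bcl11b KO MOEs and between 56.6 and 85.7 in WT MOEs. The targeted gene had a mean signal of 893 ± 242 in Bcl11b KO MOEs and 3257 ± 529 in WT MOEs (SD, n = 6 and 5) at one of its 4 probe sets, and all 4 fell without overlap between the genotypes. The defining markers of the tissue were present. Omp, the olfactory marker protein of mature OSNs, averaged 393 in Bcl11b KO MOEs and 586 in WT MOEs, and 5 of 12 measured mature OSN markers fell in Bcl11b KO MOEs while none rose. Cyp2g1, an enzyme of the supporting cells, averaged 5527 in Bcl11b KO MOEs and 5962 in WT MOEs.

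Fxyd2, the gamma subunit of the pump best known from the kidney tubule, stood out from the other members. It lies next to Fxyd6 on chromosome 9. On probe set 1419378_a_at its signal was 246.1, 385.2, 213.8, 298.7, 294.6 and 148.4 in Bcl11b KO MOEs 1 to 6, against 124.9, 41.9, 49.6, 71.2 and 80.8 in WT MOEs 1 to 5. Every Bcl11b KO array lay above every WT array. The means were 264.5 ± 81.3 in Bcl11b KO MOEs and 73.7 ± 32.7 in WT MOEs (SD, n = 6 and 5), a ratio of 3.59 and a difference of 1.66 ± 0.24 (SE) in log2. This difference stood at percentile 99.9 of all tested probe sets.

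The other Fxyd2 probe sets gave a similar picture at 2 of them and almost no signal at the last. On 1456601_x_at the signal was 212.3, 384.4, 200.2, 310.9, 310.7 and 150.5 in Bcl11b KO MOEs, against 158.8, 21.5, 83.9, 39.3 and 49.1 in WT MOEs, and the log2 difference was 1.83 ± 0.32. Here WT MOE 1 lay just above the lowest Bcl11b KO array, number 6. On 1419379_x_at the signal was 186.8, 276.6, 160.2, 162.6, 212.5 and 104.6 in Bcl11b KO MOEs, against 155.3, 55, 85.4, 61.7 and 48.9 in WT MOEs, with a log2 difference of 1.09 ± 0.25. Again WT MOE 1 was the array that reached into the Bcl11b KO range. The probe set 1449883_at read 1.2 to 4.6 in Bcl11b KO MOEs and 1.3 to 3.6 in WT MOEs, below the filter, and was not tested. The suffix x, carried by 1456601_x_at and 1419379_x_at, marks probe sets whose probes may also bind other transcripts. The 3 that gave a signal read 1 gene in the same RNA, so they are not independent readings of Fxyd2. After the genotype means were taken out, these 3 correlated with each other at r between 0.758 and 0.881 over the 11 arrays.

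**Figure D1:**
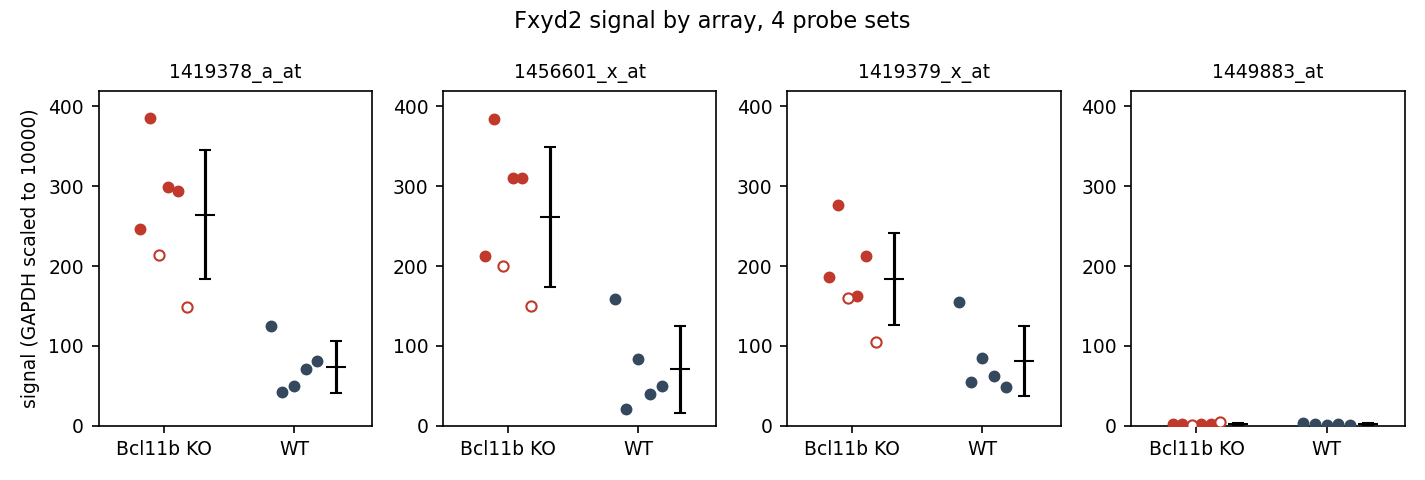
Signal of the 4 Fxyd2 probe sets (vertical axis, linear, GAPDH scaled to 10000) in 6 Bcl11b KO MOEs and 5 WT MOEs. Each circle is 1 array, open circles are the 2 females, and bars give the mean ± SD. On 1419378_a_at the lowest Bcl11b KO array (148.4) lies above the highest WT array (124.9), whereas 1449883_at lies near 2 in both genotypes.

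Sex and array quality were set beside the Fxyd2 values, because the 2 females were both Bcl11b KO. They were the 2 lowest Bcl11b KO arrays at each of the 3 Fxyd2 probe sets that gave a signal. On 1419378_a_at the females averaged 181.1, against 306.2 in the 4 Bcl11b KO males. With males only, the log2 difference from WT was 1.90 on 1419378_a_at and 2.07 on 1456601_x_at. Without the 2 Bcl11b KO arrays whose GAPDH signal leaned most to the 3′ end, a sign of shorter RNA, the same probe sets gave 1.58 and 1.75. The arrays were also divided by the poly-A spike signal, a measure of labelling, into the 5 higher (3 Bcl11b KO and 2 WT) and the 6 lower (3 and 3). The log2 difference was 1.48 in the higher and 1.82 in the lower arrays on 1419378_a_at, 1.69 and 1.93 on 1456601_x_at, and 0.63 and 1.45 on 1419379_x_at, so the last varied most between these divisions.

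In the limma fit over all probe sets, 2 of the 14 lay past the adjusted threshold of 0.05, both of Fxyd2 and both higher in Bcl11b KO MOEs, and 0.244% of all tested probe sets lay there in that direction. As lower there were 0 members and 0.211% of all probe sets. The members were chosen on this same difference, so these counts are no test of it. Groups without overlap were seen at 1 member probe set, and at 1.29% of all probe sets. The 14 log2 differences were all above 0 with a median of 0.27, while 60.4% of all tested probe sets were above 0 with a median of 0.05. With the arrays scaled on the spiked hybridization controls instead of GAPDH, the median over all probe sets was -0.12, and Fxyd3 (-0.0023) and Atp1b1 at 1423890_x_at (-0.14) and 1451152_a_at (-0.09) were below 0.

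**Figure D2:**
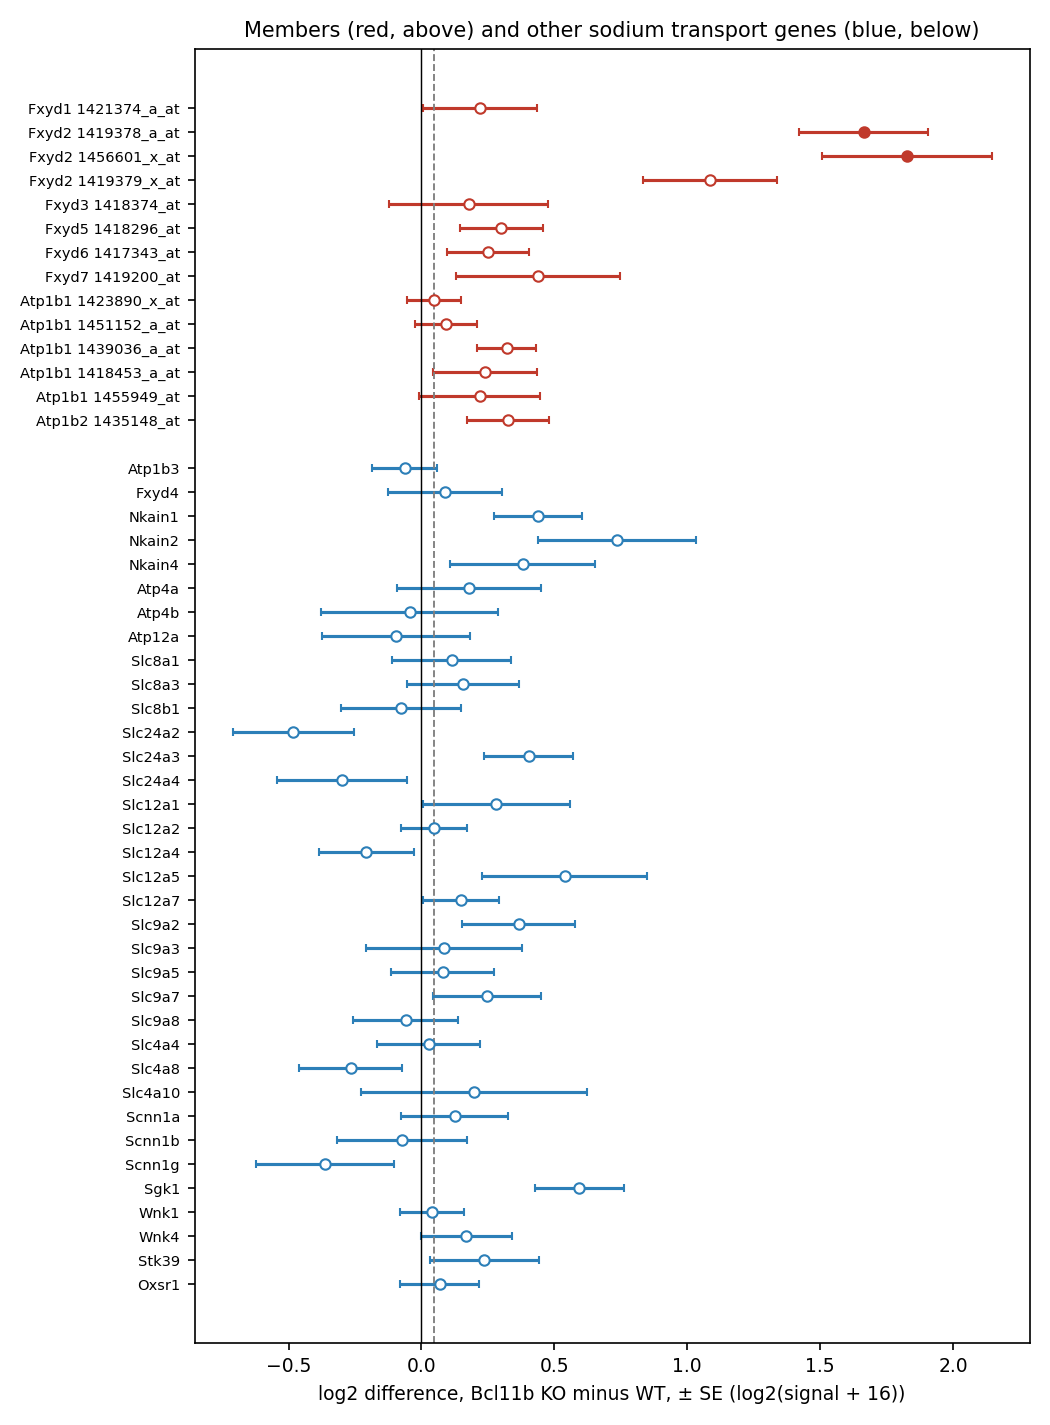
Log2 difference of signal, Bcl11b KO minus WT (horizontal axis, ± SE), for the 14 tested probe sets of the 8 genes (red, above) and for 1 probe set of each of 35 other sodium transport genes (blue, below). Filled circles passed the adjusted threshold of 0.05 and the dashed line is the median of all tested probe sets (0.05). The Fxyd2 probe sets lie at 1.66, 1.83 and 1.09, and every other gene lies between -0.48 and 0.74.

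The FXYD genes of chromosome 7 sit together, in the order Fxyd5, Fxyd7, Fxyd1 and Fxyd3. Fxyd1, phospholemman, is a pump regulator of heart and skeletal muscle whose inhibition of the pump is relieved by phosphorylation. Its signal ran from 276.3 through a median of 419.3 to 844.6 in Bcl11b KO MOEs, against 336.4, 404.6, 448, 344.1 and 381.1 in WT MOEs. The WT values lay within the Bcl11b KO range, and the log2 difference was 0.22 ± 0.21. Its highest arrays were the Bcl11b KO females, at 844.6 and 530, and with males only the difference was -0.06. Of the skeletal muscle markers, all 6 measured had differences above 0, with summed signals of 319.9 to 662.7 in Bcl11b KO MOEs and 205.7 to 444.2 in WT MOEs, and Ckm, the muscle creatine kinase, rose by 1.53 in log2 (limma, adjusted p = 0.00895), although WT MOE 2, at 56.7, lay within the Bcl11b KO range. The part of muscle in the Fxyd1 values was not tested; within genotypes the mean log2 level of the markers and Fxyd1 correlated at r = 0.0211 (n = 11 arrays).

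Fxyd3, also called Mat-8, is a regulator made in epithelia of stomach, colon and mammary gland. It was the most variable member among Bcl11b KO MOEs, at 372.2, 1175.4, 260, 768.8, 979.3 and 550.8, against 666.9, 504.5, 631, 490.1 and 407.7 in WT MOEs. Its log2 SD was 0.81 in Bcl11b KO MOEs and 0.28 in WT MOEs. Of the Bcl11b KO arrays, 3 lay above all WT arrays and 2 lay below all of them, and the log2 difference was 0.18 ± 0.30. Single arrays decided its sign, as it was -0.01 without Bcl11b KO 2 and 0.41 without Bcl11b KO 3. Fxyd5, dysadherin, which weakens contacts between epithelial cells, gave 262.9 to 427.1 with a median of 382.7 in Bcl11b KO MOEs, against 267.9, 323, 317.3, 242.4 and 277.6 in WT MOEs. The upper 4 Bcl11b KO arrays were above all WT arrays, and the log2 difference was 0.30 ± 0.16.

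The 300 bases around the start of Fxyd1, Fxyd3 and Atp1b1 are shown because these genes varied together or in opposition between mice, as described below. They run from 250 bases before to 50 bases after the annotated start, 5′ to 3′ on the strand of the gene (RefSeq, GRCm38.p6). Capitals mark matches, on either strand, to a CCAAT box (CCAAT), a GC box (GGGCGG) or a TATA box (TATAAA).
Fxyd1, chr7:31054804-31055103, minus strand: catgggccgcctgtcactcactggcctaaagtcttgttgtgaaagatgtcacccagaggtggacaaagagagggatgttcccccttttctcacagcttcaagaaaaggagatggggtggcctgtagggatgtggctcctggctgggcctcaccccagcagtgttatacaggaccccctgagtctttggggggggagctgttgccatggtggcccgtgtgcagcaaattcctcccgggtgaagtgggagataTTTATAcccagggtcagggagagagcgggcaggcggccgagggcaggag
Fxyd3, chr7:31076648-31076947, minus strand: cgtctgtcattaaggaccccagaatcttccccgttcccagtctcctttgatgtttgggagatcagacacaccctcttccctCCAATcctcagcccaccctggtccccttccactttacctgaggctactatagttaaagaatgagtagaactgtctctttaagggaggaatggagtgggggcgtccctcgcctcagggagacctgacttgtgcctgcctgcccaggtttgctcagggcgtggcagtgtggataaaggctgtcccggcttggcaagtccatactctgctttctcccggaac
Atp1b1, chr1:164458306-164458605, minus strand: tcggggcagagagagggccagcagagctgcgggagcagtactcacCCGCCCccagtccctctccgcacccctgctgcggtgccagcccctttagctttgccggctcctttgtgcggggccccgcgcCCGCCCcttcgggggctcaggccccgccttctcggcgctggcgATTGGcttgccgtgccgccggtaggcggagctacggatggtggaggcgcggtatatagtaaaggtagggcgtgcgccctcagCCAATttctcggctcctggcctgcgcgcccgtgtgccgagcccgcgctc
The Atp1b1 window was rich in G and C, at 71.0% with 31 CpG dinucleotides, and held 2 CCAAT and 2 GC boxes. Fxyd3, at 55.0% with 7 CpG, held 1 CCAAT box, and Fxyd1, at 58.7% with 6 CpG, held 1 TATA match that lay after the start on the opposite strand. Over all 32851 promoters of the same length the median was 52.7% with 7 CpG, and 37.4% held a CCAAT box, 35.7% a GC box and 13.6% a TATA box. An E box (CANNTG), the target of many helix-loop-helix factors, occurred in 0 of these 3 windows and in 72.3% of all promoters. Of the member windows not printed, that of Fxyd5 held 1 E box and that of Fxyd6 held 2. Fxyd2, Fxyd7 and Atp1b2 had no promoter entry. The core bound by the relative BCL11A in human cells (TGACCA, 13.6% of all promoters) had no match in the windows of Fxyd1, Fxyd3, Fxyd5, Fxyd6 and Atp1b1, the 5 members with an entry.

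Fxyd6, phosphohippolin, and Fxyd7 are regulators known from the brain. Fxyd6 gave 429.2 to 635.9 with a median of 578.2 in Bcl11b KO MOEs, against 332.5, 509.1, 547.6, 441.9 and 495.9 in WT MOEs. The upper 4 Bcl11b KO arrays lay above all WT arrays, and the log2 difference was 0.25 ± 0.15. Although Fxyd6 lies next to Fxyd2, within genotypes the arrays with more Fxyd2 had less Fxyd6 (r = -0.703, exact permutation p = 0.0279, adjusted over 28 pairs 0.0976; rho = -0.827, exact p = 0.00551, adjusted 0.0302; n = 11). Without the 2 arrays farthest from the median, r was -0.424. Fxyd7 was near the filter, at 5.1 to 52.1 with a median of 30.8 in Bcl11b KO MOEs, against 22.8, 40.7, 13.6, 3.6 and 11 in WT MOEs. Its genotypes overlapped almost fully, with a log2 difference of 0.44 ± 0.31.

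Atp1b1, the common beta subunit of the pump, was represented by 5 probe sets. On 1423890_x_at it gave 5117 to 7917 with a median of 7252 in Bcl11b KO MOEs, against 7366, 6908, 6745, 6167 and 6591 in WT MOEs, with a log2 difference of 0.05 ± 0.10. The lowest array of all was Bcl11b KO 3, and the others overlapped. The probe sets 1451152_a_at, 1439036_a_at, 1418453_a_at and 1455949_at differed by 0.09 ± 0.12, 0.32 ± 0.11, 0.24 ± 0.20 and 0.22 ± 0.23 in log2. On 1439036_a_at 4 of 6 Bcl11b KO arrays, up to 6760, lay above the highest WT array of 4929. With males only, that probe set differed by 0.46. The 4 probe sets of high signal tracked each other within genotypes at r between 0.722 and 0.914, while 1455949_at, whose signal was 42.5 to 68.4 in Bcl11b KO MOEs and 22 to 68.2 in WT MOEs, tracked them at no more than 0.333.

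Atp1b2, the beta subunit of glia and neurons that also serves as an adhesion molecule, gave 496.5 to 894 with a median of 665.8 in Bcl11b KO MOEs on 1435148_at. The WT MOEs gave 417.3, 576.9, 536.3, 513.2 and 616.4. Here 4 of 6 Bcl11b KO arrays lay above all WT arrays, and the log2 difference was 0.33 ± 0.16. Its other probe set, 1422009_at, read 2 to 29.8 in Bcl11b KO MOEs and 1.3 to 39.1 in WT MOEs and averaged below the filter. Markers of the glia that ensheathe the olfactory axons, the main glia of this tissue, had summed signals of 6026 to 14820 in Bcl11b KO MOEs and 5607 to 9676 in WT MOEs. None of the 6 measured passed the threshold, and within genotypes their mean log2 level and Atp1b2 correlated at r = 0.354 (n = 11 arrays).

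**Figure D3:**
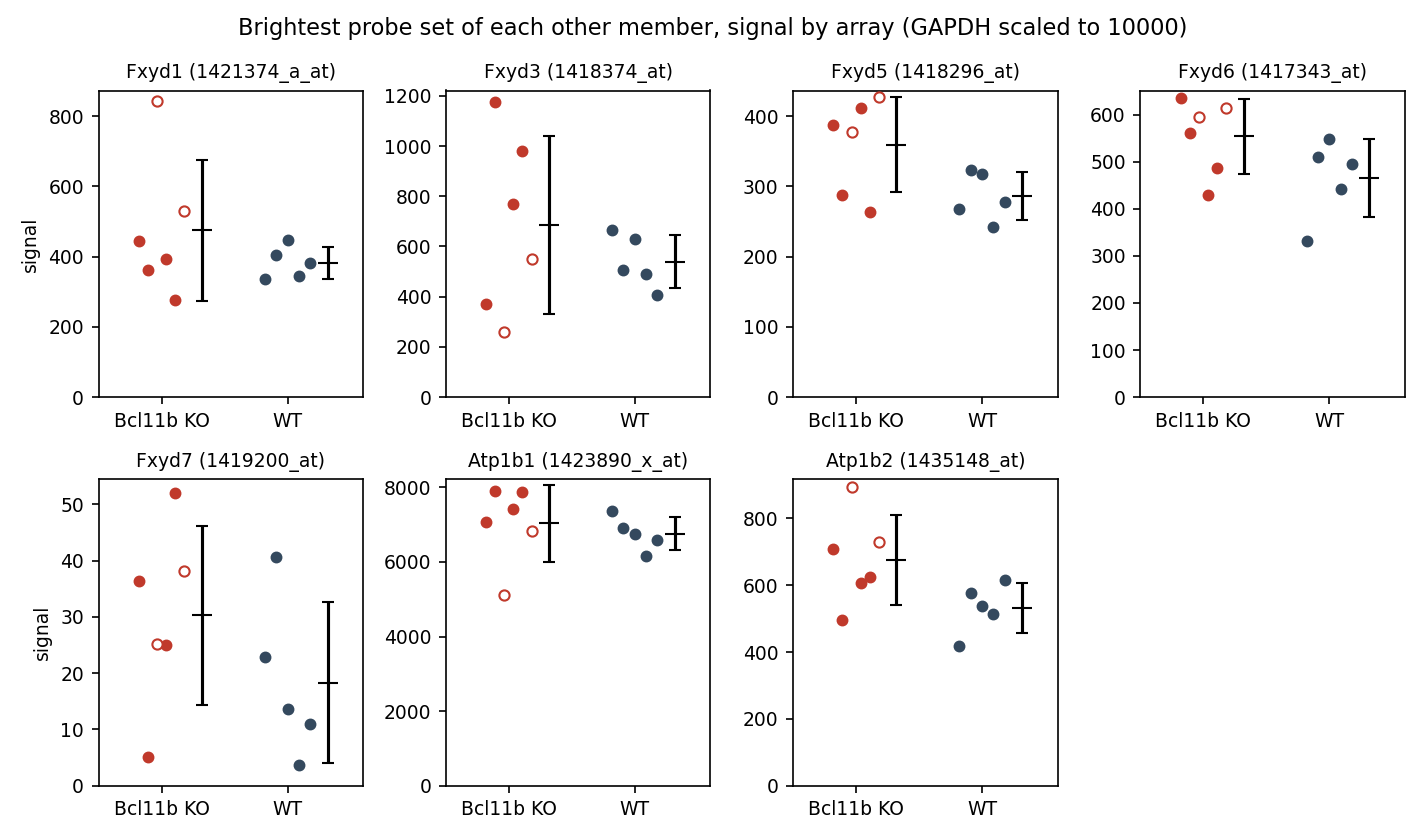
Signal of 1 probe set for each of the other 7 genes (vertical axes, linear, GAPDH scaled to 10000) in 6 Bcl11b KO MOEs and 5 WT MOEs. Each circle is 1 array, open circles are females, and bars give the mean ± SD. The genotypes overlap in every panel, and Fxyd3 spreads from 260 to 1175.4 in Bcl11b KO MOEs against 407.7 to 666.9 in WT MOEs.

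The members also varied between mice of one genotype, a variation that the choice of genes did not use. After the genotype means were removed, Fxyd3 and Atp1b1 went up and down together (r = 0.851, exact permutation p = 0.00186, adjusted over 28 pairs 0.026; rho = 0.855, exact p = 0.00162, adjusted 0.0235; n = 11 arrays). Fxyd3 and Atp1b2 went in opposite directions (r = -0.868, exact p = 0.000903, adjusted 0.0253; rho = -0.873, exact p = 0.00279, adjusted 0.0235; n = 11 arrays). Bcl11b KO MOE 3, with the least Fxyd3 (260) and the least Atp1b1 (5117), had the most Atp1b2 (894) and the most Fxyd1 (844.6). Bcl11b KO MOE 2, with the most Fxyd3 (1175.4), had the least Atp1b2 (496.5) of its genotype. Without the 2 arrays farthest from the median of Fxyd3, r was 0.675 with Atp1b1 and -0.668 with Atp1b2. Within the 6 Bcl11b KO arrays alone r was 0.878 with Atp1b1 and -0.928 with Atp1b2. All tests of this kind were two-sided, and the arrays were permuted within each genotype. Sex was not removed, and the 2 females were both Bcl11b KO. Among Bcl11b KO arrays the females averaged below the males in Fxyd3 (405.4 and 823.9), Atp1b1 (5968 and 7577) and Fxyd2. They averaged above the males in Fxyd1, Fxyd5, Fxyd6, Fxyd7 and Atp1b2 (811.9 and 608.5 for the last). Bcl11b KO MOEs 2 and 3 were also the arrays on which GAPDH leaned most to the 3′ end, with ratios of 2.416 and 2.696. Within genotypes Atp1b1 correlated with this ratio at r = -0.521 and with the poly-A spike signal at 0.597 (n = 11 arrays). For Fxyd3 these values were -0.203 and 0.497, and for Atp1b2 0.155 and -0.365. The part of sex and of array quality in these correlations was not tested.

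The remaining pairs did not pass by Pearson's r after adjustment over the 28 pairs. The nearest were Atp1b1 with Atp1b2 (r = -0.793, exact p = 0.00706, adjusted 0.0535; rho = -0.80, exact p = 0.00648, adjusted 0.0302; n = 11) and Fxyd1 with Atp1b1 (r = -0.869, exact p = 0.00764, adjusted 0.0535; rho = -0.773, exact p = 0.0117, adjusted 0.0468; n = 11). The second of these rested in good part on 2 arrays, since r was -0.493 without them. Of the 8 genes, 7 fell into sets of like sign. Fxyd3, Atp1b1 and Fxyd2 correlated with each other at r between 0.44 and 0.85, and Fxyd1, Fxyd5, Fxyd6 and Atp1b2 did so at r between 0.34 and 0.74. All 12 correlations between these 2 sets were below 0, from -0.33 to -0.87. Fxyd7 belonged to neither set, with r from -0.40 (Fxyd2) to 0.32 (Fxyd5). This grouping was made after the values were seen. Every gene of the first set averaged lower in the Bcl11b KO females than in the Bcl11b KO males, and every gene of the second set averaged higher. Fxyd7, in neither set, also averaged slightly higher in the females (31.65 against 29.65).

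**Figure D4:**
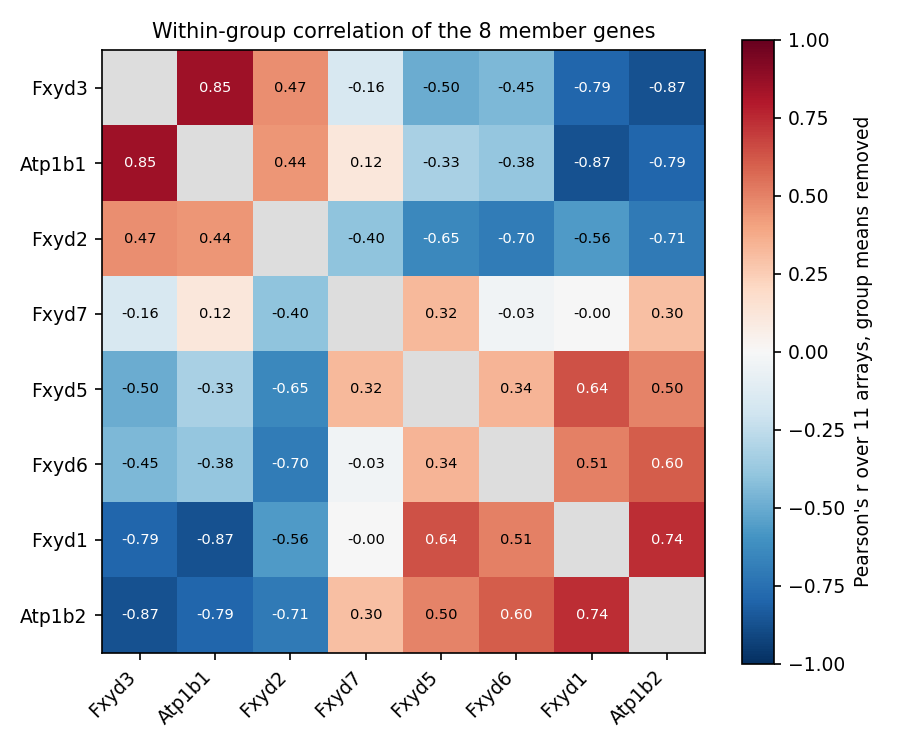
Pearson's r (colour scale from -1 to 1, values printed) between the log2 signals of the 8 genes over 11 arrays, 6 Bcl11b KO and 5 WT, after each genotype's mean was removed. Fxyd3 and Atp1b1 (0.85) share a block of positive values in the upper left, and Fxyd1 and Atp1b2 (0.74) share one in the lower right.

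The genes of nasal glands were compared with the members next, as those markers varied between mice of one genotype. The list held Bpifa1 and Bpifb3, secreted defence proteins, Muc5b, a mucin, Ltf, lactoferrin, Obp1a, an odorant-binding protein, and Sox9, a transcription factor of gland cells. Their mean log2 level was 9.77 ± 0.74 in Bcl11b KO MOEs and 9.59 ± 0.39 in WT MOEs (SD, n = 6 and 5, exact permutation p = 0.619), and none of the 6 passed the threshold between genotypes. Their summed signals were 18330 to 25660 in Bcl11b KO MOEs and 18880 to 20890 in WT MOEs. Within genotypes this level correlated with Fxyd3 at r = 0.896 (exact p = 0.00284, adjusted over 112 relations 0.109; rho = 0.891, exact p = 0.014, adjusted 0.217; n = 11). It correlated with Atp1b2 at r = -0.836 (exact p = 0.00291, adjusted 0.109; rho = -0.80, exact p = 0.014, adjusted 0.217; n = 11). For Fxyd2 the values were r = 0.746 (exact p = 0.00738, adjusted 0.139) and rho = 0.791 (exact p = 0.00701, adjusted 0.217; n = 11). Gene by gene, Fxyd2 correlated at r = 0.821 with Obp1a and 0.691 with Muc5b, and at 0.294 to 0.445 with Sox9, Ltf, Bpifa1 and Bpifb3. Without the 2 arrays farthest from the median of the gland level, Bcl11b KO MOEs 2 and 3, r was 0.797 for Fxyd3, -0.656 for Atp1b2 and 0.728 for Fxyd2. None of the 112 relations, of 8 genes with 14 marker lists, passed after adjustment. By r the smallest p was that of the gland level with Atp1b1 (r = 0.803, exact p = 0.00133, adjusted 0.109, n = 11). By rho it was that of the smooth muscle and vessel markers with Fxyd5 (rho = 0.864, exact p = 0.00266, adjusted 0.217, n = 11). The gland level and Fxyd1 gave r = -0.809 (exact p = 0.00692, adjusted 0.139, n = 11). Sex was not removed from these relations either, nor was array quality.

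The gland level and Fxyd2 met most visibly in WT MOE 1. It had the highest gland level of its genotype, at 10.17, and the highest Fxyd2 at all 3 probe sets that gave a signal. Obp1a weighed heavily in that level, at 339.6 against 2.1 to 29.4 in the other WT MOEs. Bpifa1, Sox9 and Muc5b were also highest there among WT MOEs, whereas Bpifb3 and Ltf were not. Among Bcl11b KO MOEs, number 2 had the highest gland level and the highest Fxyd2, at 10.66 and 385.2. With the gland level as a covariate, an alternative added after the values were seen, the log2 difference between genotypes was 1.56 ± 0.19 on 1419378_a_at and 1.68 ± 0.24 on 1456601_x_at. In that fit the differences of Fxyd3 and Atp1b2 were 0.01 ± 0.17 and 0.39 ± 0.13. Some markers of other cell types were also higher in the Bcl11b KO arrays. Ionocytes are salt-transporting cells of airway epithelia. Of 6 measured ionocyte markers 1 rose, Atp6v1c2, a subunit of the proton pump, by 0.76 (limma, adjusted p = 0.0300). The list did not rise with it, as 3 differences were above 0 and 3 below, with a median of -0.01. Summed signals were 2640 to 4553 in Bcl11b KO MOEs and 2622 to 2927 in WT MOEs. Atp6v1c2 itself, averaging 1628 and 934.5, is part of these sums. Within genotypes the mean log2 level of the ionocyte markers correlated with Fxyd2 at r = 0.50 (n = 11 arrays), and its part in the Fxyd2 difference was not tested. Of 4 measured erythroid markers 2 rose, the embryonic globins Hbb-y by 2.19 and Hbb-bh1 by 2.0 (limma, adjusted p = 2.8e-05 and 0.00203), with summed signals of 1260 to 1710 in Bcl11b KO MOEs and 818.9 to 1255 in WT MOEs. Of 5 measured neuronal precursor markers 2 rose, the transcription factors Neurog1 by 0.91 and Neurod1 by 0.66 (adjusted p = 0.0364 and 0.0214), with sums of 11890 to 16110 in Bcl11b KO MOEs and 9068 to 12200 in WT MOEs. Within genotypes the mean log2 levels of these lists correlated with Fxyd2 at r = 0.236 and 0.166 (n = 11 arrays), and their part in the Fxyd2 difference was not tested either. Atp6v1c2, Hbb-y, Hbb-bh1, Neurog1 and Neurod1, like Ckm above, are named after their values were seen.

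**Figure D5:**
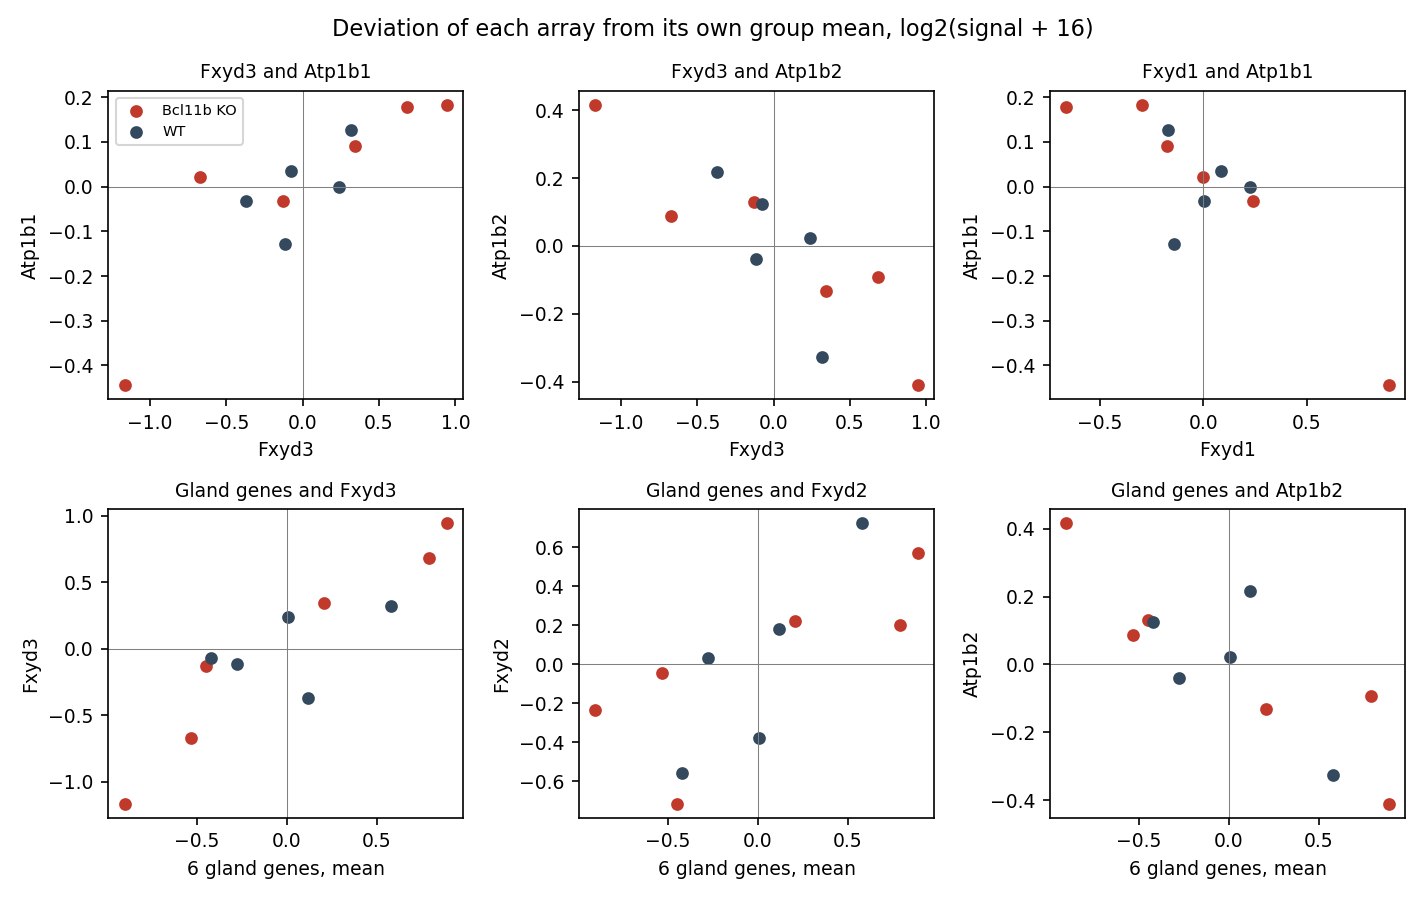
Deviation of each array from its genotype's mean in log2(signal + 16), for pairs of genes (upper row) and for the mean of 6 gland genes against Fxyd3, Fxyd2 and Atp1b2 (lower row). Points are 6 Bcl11b KO MOEs (red) and 5 WT MOEs (blue). Fxyd3 rises with Atp1b1 (r = 0.851) and with the gland genes (r = 0.896), and Atp1b2 runs against both.

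The genes whose pattern within genotypes was most like that of Fxyd2 on 1419378_a_at were Obp2a (r = 0.877), Dnase1 (0.873), Fbxo36 (0.868), Aif1l (0.866) and Spsb2 (0.859), out of 18209 probe sets compared over 11 arrays. Over all of them r had a median of -0.07, with 95% between -0.662 and 0.546. Obp2a encodes an odorant-binding protein and Dnase1 a secreted nuclease. None of the 5 passed the threshold between genotypes. Obp2a averaged 1496 ± 2464 in Bcl11b KO MOEs and 301 ± 453 in WT MOEs (SD, n = 6 and 5), with adjusted p = 0.971 in limma.

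The other genes of the pump and of sodium transport were set beside the members. Of a list of 50 genes 35 were measured, and none passed the threshold in either direction in limma, where 0.455% of all probe sets passed. At an unadjusted p under 0.05 there were Sgk1, Nkain1, Nkain2, Slc24a3 and Slc24a2, of which Nkain2 and Slc24a2 are named after their values were seen. The share of all probe sets at that cut was not counted, so nothing is read from their number. Nkain2 was low in signal, with a median of 93.65 in Bcl11b KO MOEs and 29.6 in WT MOEs. The median log2 difference was 0.09, against 0.05 over all probe sets. Atp1b3, the last beta subunit measured, averaged 2186 in Bcl11b KO MOEs and 2264 in WT MOEs (log2 difference -0.06 ± 0.12, adjusted p = 0.987 in limma). Fxyd4, a hormone-induced regulator of the kidney and colon, averaged 207.8 in Bcl11b KO MOEs and 190.1 in WT MOEs (0.09 ± 0.21, adjusted p = 0.989).

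Sgk1, the kinase that raises the amount of sodium channel and pump at the membrane, came closest in this list. It gave 3612, 4356, 2265, 3524, 4265 and 5252 in Bcl11b KO MOEs 1 to 6, against 2651, 2901, 2120, 2751 and 2110 in WT MOEs. All Bcl11b KO arrays but number 3 lay above every WT array, and the log2 difference was 0.59 ± 0.17 (limma, adjusted p = 0.199). It passed without Bcl11b KO 3 (0.74 ± 0.12, adjusted p = 0.00894) and with males only (0.66 ± 0.12, adjusted p = 0.0211), and also without the 2 Bcl11b KO arrays of highest 3′ lean in GAPDH (0.72 ± 0.13, adjusted p = 0.0153), but under no other alternative tried. In the other roles the gene of smallest p did not pass. These were Nkain1, a pump-binding membrane protein (0.44 ± 0.16, adjusted p = 0.502), the sodium-calcium exchanger Slc24a3 (0.40 ± 0.17, adjusted p = 0.603) and the chloride cotransporter Slc12a5 (0.54 ± 0.31, adjusted p = 0.843). The sodium-proton exchanger Slc9a2 differed by 0.37 ± 0.21 (adjusted p = 0.850), and the proton pump Atp4a of the stomach by 0.18 ± 0.27 (adjusted p = 0.982). The bicarbonate cotransporter Slc4a8 differed by -0.27 ± 0.19 (adjusted p = 0.924), and Scnn1g, the gamma subunit of the epithelial sodium channel, by -0.36 ± 0.26 (adjusted p = 0.920).

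The neighbours of the members on the chromosomes did not pass. They were the nearest protein-coding genes with a tested probe set beside the members, or between them, in the order of the mouse annotation (GRCm38.p6). These were 25 genes, and the log2 differences ran from -0.41 to 0.69. The highest was that of Scgb2b27 (0.69 ± 1.29), which lies 36 genes beyond Fxyd3. Tmprss13, a membrane serine protease that lies beside Fxyd6, had the smallest adjusted p (0.43 ± 0.16, adjusted p = 0.509 in limma). Dscaml1, a neuronal adhesion molecule and the next gene on the far side of Fxyd2, averaged 226.9 in Bcl11b KO MOEs and 257.5 in WT MOEs (-0.20 ± 0.19, adjusted p = 0.958).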

How the data were processed

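Intensities were measured on 11 arrays of whole MOE from separate mice, 6 Bcl11b KO and 5 WT, grouped by the labels. The authors amplified 10 ng of total RNA in 2 cycles and scaled each array linearly to GAPDH in GCOS (version not given in the sources used here), and these linear intensity signals were deposited. Genes were named from the platform annotation, in which 34958 probe sets carry 1 gene, 932 several and 9211 none. All 8 member symbols matched their Entrez IDs in the RefSeq table (GRCm38.p6).

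Control probe sets (64) and probe sets with a mean signal under 20 were left out. Log2(signal + 16) was fitted for Bcl11b KO minus WT without covariates, using lmFit and then eBayes (trend on) of limma 3.58.1 in R 4.3.3, and p-values were adjusted by Benjamini-Hochberg over all 33662 tested probe sets at a threshold of 0.05. For a non-member gene, the tested probe set of highest mean signal was used. The script was tested on simulated data. The number of arrays limits the precision.

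The members and all lists were chosen with earlier results of these data known. Named were all probe sets of the members, and every measured pump subunit and Fxyd4 of the transport list with each other role's gene of smallest p. Also taken were the 5 genes most like Fxyd2, and the 3 nearest protein-coding genes with a tested probe set on each side of the members. Correlations used values with genotype means removed, and exact tests permuted arrays within genotypes (86400 orders, smallest p 1.16e-05).

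The alternatives were other scalings, pseudocounts of 1 and 64, a minimum signal of 100 or none, no trend, males only, sex, poly-A controls, GAPDH 3′/5′ ratio or gland level as a covariate, the mean of a gene's probe sets, the replicate number as a block, and leaving out arrays. No batch was labelled.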

Additional observations from a re-analysis of the deposited data

Results flagged for a closer look

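Of 98 groups of arrays examined for the named genes, 8 held an array far from the others of its genotype, by the gap to its nearest neighbour as a share of the range. For independent groups of normally distributed values, the cut used flags about 1 group in 20 by chance. The signals here were on the linear scale, and some of the genes were named after their values were seen. The rate by chance in these data was not computed. None of the 8 was of a member gene. Obp2a, the odorant-binding protein whose pattern was most like that of Fxyd2, read 6322.1 in Bcl11b KO MOE 2, where the next array read 1792.4 (gap over range 0.718), and 1089.8 in WT MOE 1, where the next read 280.7 (0.763). Dnase1, the gene second most like Fxyd2, read 1895 in WT MOE 1, with the next array at 270.4 (0.86). Bcl11b KO MOE 2 and WT MOE 1 were also the arrays of their genotypes with the highest Fxyd2 signal and the highest level of gland genes. That level includes Obp1a, which is itself flagged below in WT MOE 1. Nkain1, a pump-binding membrane protein, read 353.9 in WT MOE 2, with the next array at 264.2 (0.733). Obp1a, the odorant-binding protein of the gland list, read 339.6 in WT MOE 1, with the next array at 29.4 (0.919), and Hbb-bh1, an embryonic globin, read 51.9 there, with the next at 5.4 (0.936). Ckm, the muscle creatine kinase, read 56.7 in WT MOE 2, with the next at 10.1 (0.965). Omp, the marker of mature OSNs, read 238.7 in Bcl11b KO MOE 3, with the next at 377.7 (0.655).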

How the results depend on the processing

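As the members were chosen on this contrast, their counts past the threshold describe the fits and support nothing. Under 15 alternatives the log2 difference of Fxyd2 was 1.25 to 1.90 (1419378_a_at) and 1.31 to 2.13 (1456601_x_at), and with each array left out in turn 1.52 to 1.84 and 1.58 to 2.13. Fxyd2 at 1419379_x_at ran from 0.78 to 1.29 and lay past the threshold under 3 of the 15 (males only, sex or gland level as a covariate), and also without Bcl11b KO 6 (1.22) or WT 1 (1.31). No member difference moved by more than 1 SD of its log2 values between arrays of a genotype, the larger of the genotypes' SDs, though some moved by more than their SE, such as Atp1b1 at 1423890_x_at (0.05 ± 0.10, and -0.14 when scaled on the hybridization controls). With males only, 4 member probe sets lay past the threshold as higher, those of Fxyd2 and Atp1b1 at 1439036_a_at, and 1 sodium transport gene, Sgk1. Leaving out each array gave 2 to 3 member probe sets and 0 to 1 transport genes, the 1 being Sgk1 without Bcl11b KO 3, and when the 2 Bcl11b KO arrays whose GAPDH ratio was highest were dropped, 1 passed as well.

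Over all probe sets 153 passed, 82 higher and 71 lower in Bcl11b KO MOEs. Scaling on the array median gave 186 (90 higher, 96 lower), quantile normalization 293 (120 higher, 173 lower) and scaling on the hybridization controls, which read 0.18 higher in log2 on Bcl11b KO arrays (exact permutation p = 0.0173, n = 6 and 5), 312 (58 higher, 254 lower). Without the 2 arrays of highest GAPDH ratio 282 passed. Leaving out each array gave 85 to 212, with 85 without WT 3 and 97 without WT 5. The cause of these shifts was not tested.

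The replicate numbers did not pair the arrays, as arrays of one number correlated at -0.283 to 0.0085 after the genotype means were removed. With the replicate block 91 probe sets passed, and the same 2 members.

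Signals of Fxyd7, and of Fxyd2 and Atp1b2 at their last probe sets, were near or below the filter, where differences are least certain. The mean WT signals of Ckm and Hbb-bh1 were also below it.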
